A study of Equus caballus with 12 samples.

Results

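The microRNA miR-101 (eca-miR-101) was described across lung, heart and liver of 4 young healthy horses. It was taken by its name from the authors' table of normalized counts, where it is 1 of the 294 entries named after known equine miRNAs and 1 of 629 entries in all. The horses (numbers 27, 30, 32 and 34) were untreated Polish cold-blooded stallions, sampled immediately after slaughter. Each gave 1 small RNA library from the caudal part of the right lung, 1 from the left ventricle of the heart and 1 from the right lobe of the liver, so that there are 12 libraries and 4 per tissue, and the 4 libraries of a tissue come from different animals. The samples are whole tissue, in which more cells of a type and more RNA per cell cannot be told apart.

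MicroRNAs are short RNAs that guide Argonaute proteins to partly complementary sites in messenger RNAs, mostly in 3′ untranslated regions, and so lower the stability and translation of these messengers. In human cells the best known target of miR-101 is EZH2, the methyltransferase of the Polycomb repressive complex that places a repressive methyl mark on histone H3, and miR-101 is known to be lower in human liver cancer than in normal liver. In rat heart it has been described as a brake on the fibroblasts that lay down scar tissue. In the RefSeq annotation of the horse assembly TB-T2T, which is not the build of the study and is used here for names only, a pair of genes makes miR-101. MIR101-1 lies between the coding genes AK4 and JAK1, and MIR101-2 lies inside RCL1, between AK3 and JAK2, so each has an adenylate kinase gene on one side and a Janus kinase gene on the other. No other miRNA gene lies within 10 kb of either. The table holds 1 entry for miR-101, so reads from the 2 genes cannot be told apart.

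The libraries held 3066869 to 9355513 reads in the table, as derived from the steps between the deposited values. Each tissue carried its own marker miRNAs: 5 of 5 lung markers were called higher in lung than in heart (19.5% of all 256 tested miRNAs were) and than in liver (25.0%), 4 of 4 heart markers were called higher in heart than in liver (19.9%), and 5 of 5 hepatocyte markers were called lower in heart (27.0%) and in lung (26.6%) than in liver. The marker lists were written with earlier results of these data known. Some markers also passed the minimum level for testing only through their own tissue. miR-208b of heart, at 0 in all lung and liver libraries, is an example. These counts therefore describe the tissues and are no independent support. The read composition differed strongly between tissues. miR-1, the dominant miRNA of striated muscle, took 43.2 to 51.7% of the reads of known miRNAs in heart, against 0.166 to 0.235% in lung. miR-122, the dominant miRNA of hepatocytes, took 21.1 to 24.5% in liver.

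miR-101 was lower in lung and in heart than in liver, and all 4 liver libraries lay above all 8 others. In lung it had 10834.5, 15951.0, 14548.2 and 25083.6 normalized counts in horses 27, 30, 32 and 34, with a mean of 16604 ± 6051 (SD, n = 4). In heart it had 21359.9, 28084.2, 12521.8 and 12923.6 normalized counts in the same order of horses, with a mean of 18722 ± 7454 (SD, n = 4). In liver it had 67550.0, 63286.5, 105427.1 and 56053.2 normalized counts, with a mean of 73079 ± 22081 (SD, n = 4). The highest lung library was that of horse 34, the highest heart library that of horse 30 and the highest liver library that of horse 32, so no horse was highest in more than 1 tissue. Lung and heart overlapped across most of their ranges.

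These values rest on 13453 to 25799 reads of miR-101 per lung library, 7681 to 18897 per heart library and 36514 to 143562 per liver library. The counting error was at most 1.14% of a value, against a spread between horses of 36.4% in lung, 39.8% in heart and 30.2% in liver (SD as a percent of the mean). Amplified reads are not independent molecules, so counting errors and the intervals of shares below cover counting only.

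By mean level miR-101 was the 38th most abundant of the 294 known miRNAs in lung, the 34th in heart and the 12th in liver. In single libraries its rank was 26 to 47 in lung, 27 to 38 in heart and 10 to 15 in liver. Its closest neighbours in the liver order were miR-143, a smooth muscle miRNA, with 95832 ± 41256 normalized counts, and miR-199b-5p, with 67765 ± 18946 (SD, n = 4), and each differed from miR-101 by less than the larger SD of the pair. As a share of the reads of known miRNAs, miR-101 made up 0.228, 0.363, 0.289 and 0.658% of lung libraries, 0.212, 0.236, 0.121 and 0.0854% of heart libraries and 1.22, 1.31, 2.43 and 1.01% of liver libraries. The 95% Wilson interval was 0.649 to 0.667% for the highest lung share, 0.0835 to 0.0873% for the lowest heart share and 2.41 to 2.44% for the highest liver share.

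**Figure D1:**
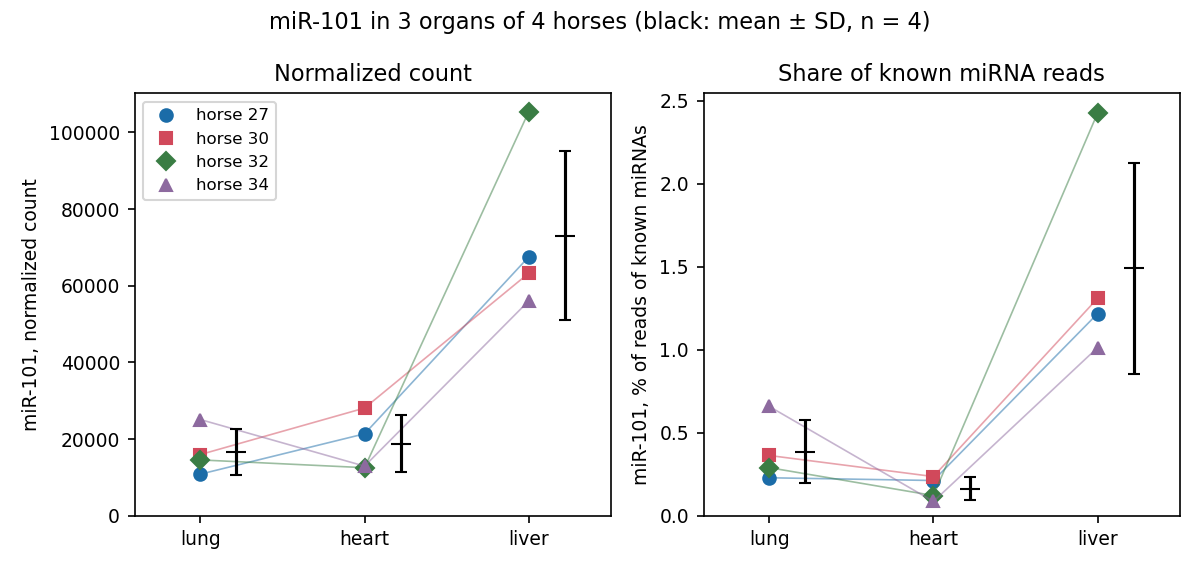
miR-101 in lung, heart and liver, as normalized count on the y axis of the left panel and as percent of the reads of known miRNAs on that of the right panel. Each marker is a library, thin lines join the tissues of a horse, and the black bars are the mean and SD of 4 horses. The liver libraries lie at 56053.2 normalized counts or higher and all others at 28084.2 or lower. Heart lies slightly above lung in the mean normalized count and below lung in the mean share.

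The first question was whether miR-101 differs between heart and liver. With 18722 ± 7454 normalized counts in heart and 73079 ± 22081 in liver (SD, n = 4 each), the mean was 3.90-fold lower in heart. The log2 fold change was -2.01 (SE 0.33, 95% interval -2.74 to -1.28), with an adjusted p of 0.000294 by limma over 256 known miRNAs, and miR-101 was called lower in heart. For a call, the adjusted p had to be under 0.05 and the change had to be 1 or more on the log2 scale in either direction. In this comparison 120 miRNAs (46.9%) were called, 69 of them (27.0%) lower in heart, and 134 (52.3%) had no overlap between the tissues. A difference of this kind was therefore common, and that of miR-101 ranked 98th in size among the 256. An exact two-sided permutation test on miR-101 alone gave p = 0.0286, the smallest that 4 against 4 libraries allow, or 0.0429 after adjustment over the 3 comparisons.

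The same held for lung. miR-101 averaged 16604 ± 6051 normalized counts in lung and 73079 ± 22081 in liver (SD, n = 4 each), 4.40-fold lower in lung. The log2 fold change was -2.16 (SE 0.33, 95% interval -2.89 to -1.43, adjusted p = 0.000184 by limma), and the exact permutation test gave p = 0.0286 (0.0429 adjusted). Here 132 of the 256 miRNAs (51.6%) were called, 68 (26.6%) lower in lung, and 135 (52.7%) had no overlap. miR-101 ranked 83rd in size. Heart and lung were set against the same 4 liver libraries, so the 2 results are not independent of each other.

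Within each horse miR-101 was lower in heart and in lung than in liver. Heart over liver was 0.316-, 0.444-, 0.119- and 0.231-fold in horses 27, 30, 32 and 34. Lung over liver was 0.160-, 0.252-, 0.138- and 0.447-fold in the same order. Horse 32 had the largest gap in both, and its liver held the most miR-101 of all libraries. With the horse as a block in the limma fit, the adjusted p was 0.00225 for heart over liver and 0.00158 for lung over liver.

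Lung and heart could not be separated by the normalized counts. The means were 16604 ± 6051 normalized counts in lung and 18722 ± 7454 in heart (SD, n = 4 each), and the log2 fold change was -0.16 (SE 0.33, adjusted p = 0.735 by limma, exact permutation p = 0.743). The 95% interval ran from -0.89 to 0.57, so that a difference of less than about this size in either direction could not be told from none. Lung over heart was 0.507- and 0.568-fold in horses 27 and 30, and 1.16- and 1.94-fold in horses 32 and 34. The horses thus split evenly in direction. In this comparison 99 of the 256 miRNAs (38.7%) were called, 50 (19.5%) higher and 49 (19.1%) lower in lung, and 114 (44.5%) had no overlap.

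The direction between lung and heart depended on how the libraries were scaled. When each library was set to the same total of known miRNAs, miR-101 was higher in lung than in heart, by 1.23 on the log2 scale (SE 0.41, adjusted p = 0.0223 by limma), a call that the normalized counts did not give. This scaling moved the median of all 256 miRNAs by 1.23 in the same comparison, and miR-101 lay within 0.0021 of that median, against 0.16 below the median with the authors' size factors. With miR-1 left out of the totals, a step added after the data were seen, the log2 fold change of miR-101 was 0.32 (adjusted p = 0.566) and the median moved by 0.41. The split of calls changed too, from 50 higher and 49 lower in lung with the size factors to 124 higher and 16 lower with equal totals. The mean share of reads was 0.385 ± 0.190% in lung and 0.164 ± 0.0717% in heart, or 0.385 ± 0.191% and 0.307 ± 0.131% with miR-1 left out (SD, n = 4 each).

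Against liver the scaling changed the size of the difference but not its direction or its call. Heart over liver reached -3.22 on the log2 scale with equal totals, while the median of all miRNAs moved by -1.16, and 26 miRNAs were then called higher and 139 lower in heart, against 51 and 69 with the size factors. Relative to the median, miR-101 was at -1.84 with equal totals and at -1.77 with the size factors. Lung over liver was -1.99 with equal totals, a shift of the median of 0.16. With TMM factors the log2 fold changes of miR-101 were -1.90 for heart over liver, -2.27 for lung over liver and -0.36 for lung over heart.

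**Figure D2:**
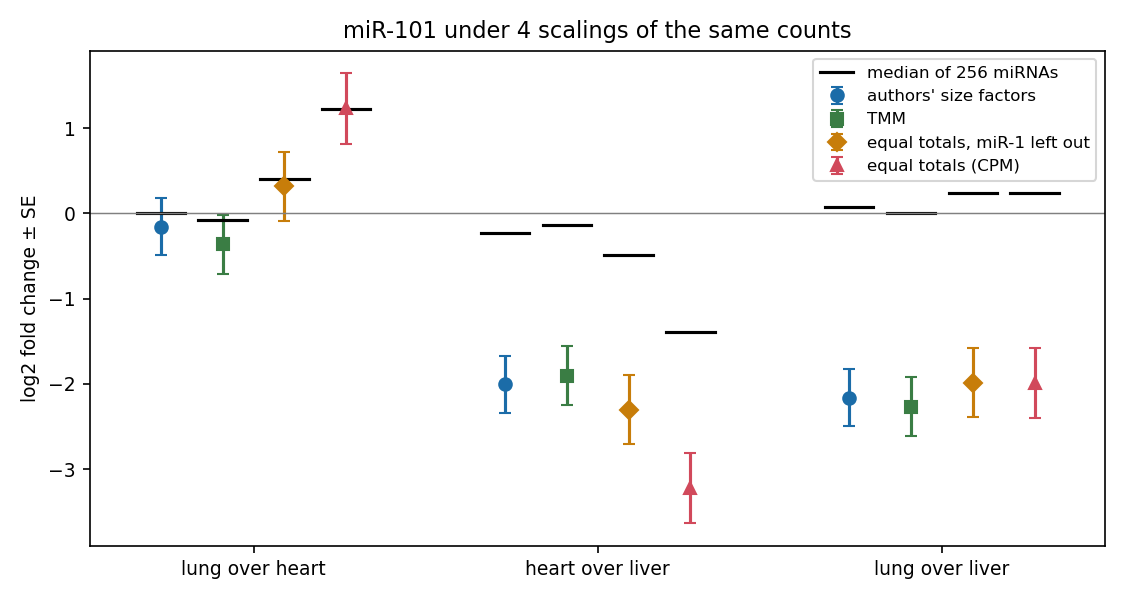
log2 fold change of miR-101 with its SE on the y axis in the 3 comparisons on the x axis, under 4 ways to scale the libraries, with the median of the 256 tested miRNAs under each scaling as a black dash. The values against liver stay at -1.90 or lower. Lung over heart moves with the median of all miRNAs, to 1.23 under equal totals.

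The study also measured miR-101 by qPCR in lung, heart and liver, relative to miR-128 as the endogenous control, and those qPCR values were not used here. In the libraries the control itself varied. miR-128 had 11031 to 64248 normalized counts in heart, a 5.82-fold range, against 15939 to 29411 in liver, and 13236 to 33521 in lung. It was called in none of the 3 comparisons (heart over liver 0.13, adjusted p = 0.838; lung over liver -0.30, adjusted p = 0.648; lung over heart -0.43, adjusted p = 0.491, all by limma). The sign in heart over liver and in lung over heart was the opposite with equal totals.

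The ratio of miR-101 to miR-128 within a library does not depend on the scaling. It was 0.626, 1.21, 0.434 and 1.62 in lung of horses 27, 30, 32 and 34. In heart it was 1.94, 1.49, 0.422 and 0.201, a 9.63-fold range. The low values were in the horses whose hearts had the most miR-128 and also the least miR-101. In liver it was 4.24, 2.65, 4.30 and 1.91. The heart of horse 27 had a higher ratio than the liver of horse 34, so the tissues overlapped by this measure, while in lung every ratio was below every liver ratio. The mean log2 ratio was lower in heart than in liver by -2.14 (exact two-sided permutation p = 0.0571, 0.0857 adjusted over the 3 comparisons), lower in lung than in liver by -1.86 (p = 0.0286, 0.0857 adjusted, exact permutation), and 0.28 higher in lung than in heart (p = 0.80, exact permutation). None of these passed 0.05 after adjustment. Within each horse the ratio was lower in heart than in liver, at 0.457-, 0.563-, 0.0982- and 0.106-fold. It was also lower in lung than in liver in every horse, at 0.148-, 0.455-, 0.101- and 0.849-fold.

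**Figure D3:**
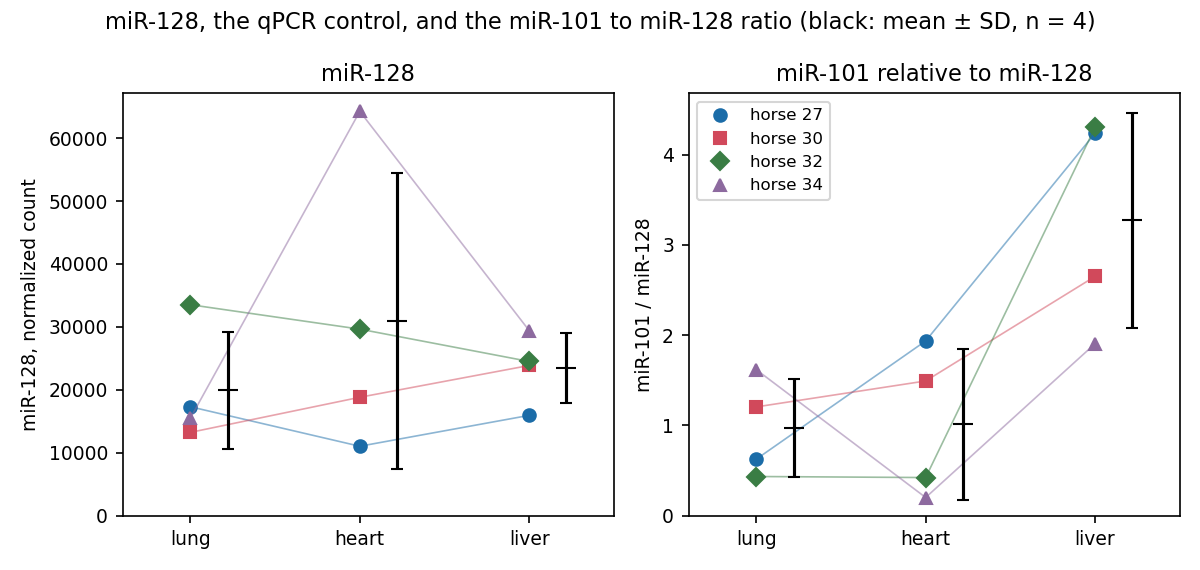
miR-128, the control of the qPCR, as normalized count (left y axis) and the ratio of miR-101 to miR-128 (right y axis) in lung, heart and liver. Markers are libraries, thin lines join the tissues of a horse, and black bars are the mean and SD of 4 horses. In heart miR-128 runs from 11031 to 64248 normalized counts, and the ratio from 1.94 to 0.201 in the same horses.

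Of the other miRNAs of the qPCR panel, 4 were analysed here, and the panel was therefore not covered in full. All 4 were called higher in heart than in liver, where 51 of the 256 miRNAs (19.9%) were, while miR-101 was called lower. miR-499-5p, which lies within a cardiac and slow muscle myosin gene, had a log2 fold change of 10.16 (SE 0.51). miR-100 had 3.84 (SE 0.25), with 592221 ± 169919 normalized counts in heart and 40804 ± 7332 in liver (SD, n = 4 each). miR-125b-5p had 1.62 (SE 0.29) and miR-23a 1.61 (SE 0.24), and both were no longer called with equal totals (0.41 and 0.39). The panel was chosen by the study on these samples and is not independent evidence of direction. In lung over liver 2 of the 4 were called higher, against 25.0% of all tested miRNAs, and in lung over heart 2 were called lower, against 19.1%.

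Hepatocyte RNA was described through miR-122, since miR-101 was highest in liver. miR-122 had 234 to 2294 normalized counts in lung and 737 to 3116 in heart, against 948651 to 1359774 in liver. The log2 fold change of miR-122 was -9.75 (SE 0.65) in heart over liver and -10.04 (SE 0.65) in lung over liver. The 5 hepatocyte markers together summed to 58466 to 280577 normalized counts in lung, 31224 to 153329 in heart and 1348482 to 1902402 in liver. The sums in lung and heart were nearly all miR-148a, which had 57806 to 278539 normalized counts in lung, 29880 to 149991 in heart and 359262 to 601914 in liver, whereas miR-194 had 241 to 443, 99.6 to 155 and 33886 to 36305. For each count of miR-122 there were 6.95 to 46.4 counts of miR-101 in lung and 4.15 to 38.1 in heart, but 0.0481 to 0.111 in liver. Every lung and heart library thus held more miR-101 per miR-122 than any liver library. This order follows from the gap of miR-122 between tissues, which was far larger than that of miR-101. The part of hepatocyte RNA in the miR-101 levels was not tested.

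miR-144, which shares the core of its seed with miR-101 and is therefore known to share targets with it, was nearly absent. It is a red blood cell miRNA whose gene lies beside MIR451 in the TB-T2T assembly. It was listed at 0 in 9 of the 12 libraries, which stands for fewer than 6 reads, and had 1349.7 normalized counts in the lung of horse 34, 44.4 in the liver of horse 27 and 163.0 in the liver of horse 32. It did not pass the filter on low values and was not tested. The libraries of lung 34 and liver 32 are those with the highest miR-101 of their tissues. miR-486-5p, the other red blood cell miRNA in the table, did not follow: the lung of horse 34 had 23889 normalized counts, the lowest of the 4 lung libraries, whose highest was 66840. Summed, the 2 miRNAs of the red blood cell list had 25239 to 66840 normalized counts in lung, 66906 to 160133 in heart and 4149.8 to 6888.3 in liver. These sums were nearly all miR-486-5p, and in heart, where miR-144 stood at 0, they were miR-486-5p alone. They cannot be read as blood content, and the part of blood in the miR-101 levels was not tested. The 4 leukocyte miRNAs in the table summed to 29537 to 88115, 7926.4 to 9758.8 and 12200 to 21542 normalized counts in lung, heart and liver, and the 4 vessel wall miRNAs to 172571 to 287206, 164561 to 269159 and 67022 to 167032. miR-142-5p, a leukocyte miRNA, was all or nothing between libraries in lung and in liver, but not in heart (1381 to 1711 normalized counts). In horses 27, 30, 32 and 34 it had 11310, 5832, 0 and 0 normalized counts in lung and 0, 0, 0 and 4607 in liver. The leukocyte sums include these swings. Of the leukocyte miRNAs, 1 was called higher and 1 lower in heart over liver (background 19.9% and 27.0% of all tested miRNAs), and 3 higher in lung over liver and in lung over heart (background 25.0% and 19.5%). Of the vessel wall miRNAs, 1 was called higher and 2 lower in heart over liver (background 19.9% and 27.0%), 3 higher in lung over liver (25.0%) and 2 higher in lung over heart (19.5%).

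Other miRNAs that are known in human or mouse cells to lower EZH2 were then counted. Of the 4 tested members of that list, 0 were called higher and 1 lower in heart over liver (19.9% and 27.0% of all miRNAs), 1 higher in lung over liver (25.0%) and 1 higher in lung over heart (19.5%), each by limma, so that the counts lay near the shares over all miRNAs. Their median log2 fold change was -0.39, 0.13 and 0.35 in these comparisons, against -0.23, 0.08 and 0.00 over all 256 miRNAs. miR-26a, a tumour suppressor miRNA of liver, was the most abundant of them, with 787080 ± 31390 normalized counts in lung, 808359 ± 189533 in heart and 747556 ± 87408 in liver (SD, n = 4 each). Its 3 means differed from each other by less than the SD in heart. miR-98, a let-7 family member, had 6280 ± 1191, 4300 ± 2228 and 6967 ± 469 in lung, heart and liver. miR-214 had 1157 ± 356, 1911 ± 724 and 1001 ± 186. The called member was miR-138, named here after its values were seen. It had 166 to 628 normalized counts in lung, stood at 0 in all 4 heart libraries, and reached 0 to 8.85 in liver, so that its call in heart over liver rests on values near the minimum read count of 6. It reached the 10 normalized counts of the filter only in lung. Its calls as higher in lung thus follow a filter that it passed through lung alone, and are no support.

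miR-101 was also set beside miRNAs known to be lower in human liver cancer than in normal liver. Of the 9 tested, 2 were called higher and 1 lower in heart over liver (19.9% and 27.0% of all miRNAs), 3 higher and 3 lower in lung over liver (25.0% and 26.6%), and 2 higher and 1 lower in lung over heart (19.5% and 19.1%). Their median log2 fold changes were 0.56, 0.50 and -0.29 in these comparisons, against -0.23, 0.08 and 0.00 over all 256 miRNAs. The counts lay near the shares over all miRNAs. miR-22, which is expressed in many tissues, was an abundant member with the same order of mean levels as miR-101. miR-122, described above, had this order of means too. miR-22 had 22928 ± 12751 normalized counts in lung, 34083 ± 8702 in heart and 58659 ± 11676 in liver (SD, n = 4 each). It was lower in lung than in liver by -1.49 on the log2 scale (SE 0.33, adjusted p = 0.00254 by limma), and heart over liver was -0.79 (SE 0.33, adjusted p = 0.0606). With equal library totals heart over liver of miR-22 was also called, at -2.01 (adjusted p = 0.00101 by limma), and with miR-1 left out of the totals at -1.09 (adjusted p = 0.0393).

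How much of the variation of miR-101 lay between tissues was then described. Tissue held 84.1% of its sum of squares of log2 values, against a median of 73.2% over the 256 miRNAs and 71.6% over the 45 with a mean of at least 10000 normalized counts. Its SD within tissues was 0.49 on the log2 scale, against medians of 0.57 and 0.48. Its spread between horses was thus near that of other abundant miRNAs.

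Over the 12 libraries the tested miRNAs with the profile most like miR-101, by Pearson's r of log2(normalized count + 1), were miR-656 (r = 0.937, Spearman's rho = 0.874), miR-383 (0.920, 0.824), miR-8908h (0.910, 0.815), miR-8908c (0.909, 0.815) and miR-494 (0.907, 0.706). These are descriptions over 12 libraries from 4 horses in 3 tissues. All 5 were highest in liver. miR-656, of the imprinted DLK1-DIO3 cluster, had 77.3, 82.8, 117 and 174 normalized counts in lung, 313, 242, 211 and 113 in heart and 858, 1018, 1157 and 557 in liver, in the order of horses 27, 30, 32 and 34. Its highest lung and liver libraries were those of miR-101. miR-494, of the same cluster, had 222 to 328 in lung, 273 to 704 in heart and 1577 to 1827 in liver. miR-383, miR-8908h and miR-8908c were listed at 0 in every lung and heart library and had 68.4 to 234.9, 54.8 to 218.9 and 110.9 to 585.8 normalized counts in liver, so their r with miR-101 rests on the step between liver and the other tissues.

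A different set was most like miR-101 among the libraries within tissues. After the mean of each tissue was taken away, the deviations most like those of miR-101 over the 12 libraries were of miR-19b (r = 0.893, rho = 0.811), miR-19a (0.852, 0.678), miR-30b (0.846, 0.881), miR-30e (0.843, 0.769) and miR-3200 (0.788, 0.727). miR-19a and miR-19b belong to the miR-17 cluster and its paralog, which promote cell proliferation and survival, and miR-30b and miR-30e to the broadly expressed miR-30 family. In heart miR-19a rests on only 9 to 23 reads per library, near the minimum read count of 6. Within lung, heart and liver taken apart, each over 4 libraries, these r were 0.66 to 0.99. With the lung of horse 34 dropped they were 0.882, 0.849, 0.825, 0.807 and 0.763 in the same order. The lung means were not taken anew for this, so that library still weighs on the other lung deviations. With equal library totals the r over the 12 libraries were 0.942, 0.877, 0.913, 0.907 and 0.877. These miRNAs were picked from the same data as the highest of 255 r. Their r within tissues and under other totals are therefore no separate support. The lowest r were of similar size, down to -0.819 for miR-10a. The points share libraries, depth and scaling.

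miR-101 lay 0.66 above its tissue mean on the log2 scale in the lung of horse 34, 0.67 above it in the heart of horse 30 and 0.57 above it in the liver of horse 32. miR-19b had 366, 743, 730 and 3261 normalized counts in lung of horses 27, 30, 32 and 34, then 329, 453, 257 and 130 in heart and 901, 919, 2442 and 900 in liver. Its highest library in each tissue was thus also that of miR-101. miR-30e had 8238, 9065, 8493 and 19965 normalized counts in lung, 31735, 26623, 20350 and 21143 in heart and 10497, 9740, 19258 and 10209 in liver. In heart its highest library was that of horse 27, not of horse 30. Across tissues miR-30e was highest in heart, where miR-101 was low, so the likeness within tissues did not extend across them. By reads in the table the shallowest libraries were liver 27 and lung 34, while liver 32 did not stand apart in depth, and the part of depth in these deviations was not tested.

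**Figure D4:**
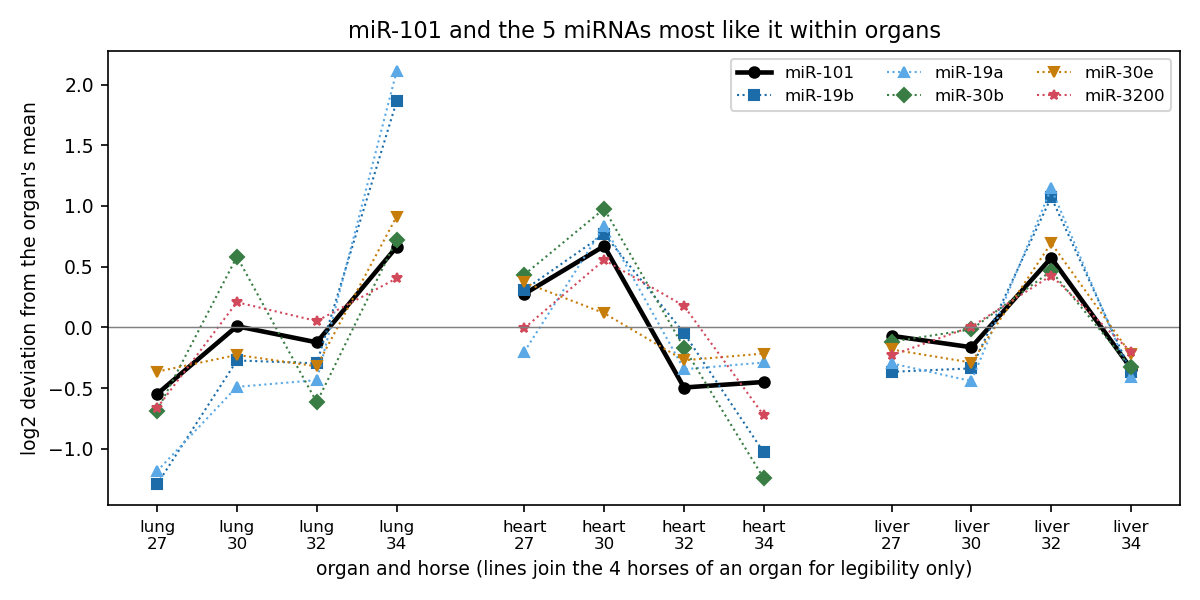
Deviation of log2(normalized count + 1) from the mean of the tissue (y axis) for miR-101 (black) and the 5 miRNAs most like it in this measure, in the 12 libraries on the x axis. miR-101 deviates most upwards in lung 34 (0.66), heart 30 (0.67) and liver 32 (0.57), and miR-19b deviates upwards in the same libraries by 1.86, 0.77 and 1.07.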

How the data were processed

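Small RNA libraries (NEBNext) of lung, heart and liver of 4 horses were sequenced by the authors. By the methods of the study, the authors trimmed the reads, counted them with sRNAbench (miRBase, 6 reads or more) and normalized them with DESeq2. By the submitters' processing notes the authors used Trimmomatic and BWA, so that the sources differ on trimming and mapping. The deposited values are a signal, the authors' counts divided by a size factor per library. The table also holds the authors' own comparison of 2 tissues (log2 fold change, standard error, statistic and p-values), which was not used. Reads were derived from the deposited values as multiples of a step, the lowest value above 0 divided by 6; 100% of values were whole multiples within 0.01.

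The 256 known miRNAs that reached 10 normalized counts in 4 or more libraries were tested with limma 3.58.1 (trend) in R 4.3.3 on log2(normalized count + 1), which understates the change of low miRNAs, with a mean per tissue and Benjamini-Hochberg adjustment. Calls needed an adjusted p under 0.05 and a change of 1 or more on the log2 scale. Single values were compared by exact two-sided permutation over 70 splits. The fit was tested on simulated data. Figures used matplotlib 3.10.9. The miRNA, the lists and the tests were chosen with earlier results of these data known. miRNAs named were miR-101 and its relative miR-144, the qPCR panel and its control, the abundant members of the lists, the 5 most like miR-101 in each measure, and neighbours in level. Not all members that this rule allows are named. Of the lists, miR-451, miR-142-3p, miR-223, miR-124, miR-137, miR-217, miR-199a-3p, miR-199b-3p and miR-375 were not analysed here, nor was the whole qPCR panel. The sequence of miR-101 was not used here, so entries named by sequence were not matched to it.

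The samples are paired by animal, which the horse number gives. Deviations from tissue means correlated with a median of -0.057 over 12 pairs of the same horse (range -0.27 to 0.15) and 0.028 over 36 pairs of different horses. Alternatives were other pseudocounts and filters, TMM factors, equal library totals (CPM), the horse as a block, and each horse and library left out.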

Additional observations from a re-analysis of the deposited data

Results flagged for a closer look

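In 10 of 88 groups of 4 libraries (the miRNAs named here, in each tissue), the highest or lowest library stood further from the others than Dixon's criterion allows at the 95% level; chance flags about 1 group in 20. miR-101 itself was in none of these groups. In lung all 5 were the library of horse 34: miR-144 (1349.7 normalized counts), miR-19b (3261), miR-19a (229.7), miR-30e (19965) and miR-29a (63069). The remaining lung libraries stood at 0 for miR-144, so any listed value in horse 34 would have been flagged. In liver all 3 were the library of horse 32: miR-19b (2442), miR-19a (137.3) and miR-30e (19258). In heart these were miR-19a in horse 30 (34.2, from only 23 reads) and miR-22 in horse 27 (47110). These 3 miRNAs of lung and liver, miR-19a, miR-19b and miR-30e, were among those chosen for deviations like those of miR-101, so that their coming from the libraries with the most miR-101 is part of how they were chosen.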

How the results depend on the processing

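The calls of miR-101 as lower in heart and in lung than in liver held in every alternative run. Heart over liver was -2.28 to -1.65 with a horse or library left out (adjusted p up to 0.00795), and lung over liver -2.50 to -1.93 (up to 0.0036). miR-101 lung over heart changed sign with equal totals (1.23, adjusted p = 0.0223; exact permutation test 0.0571), with miR-1 left out of them (0.32), and with horse 27 or 30, lung 27 or heart 30 left out (range -0.53 to 0.12 in the limma fit and -0.38 to 0.068 in the permutation test). The limma fit with the replicate block gave -0.16 (adjusted p = 0.77) there, and the block changed no call of miR-101. The recorded calls of miR-128, miR-122, miR-22 and, in heart over liver, the 4 panel miRNAs were unchanged as well. Other calls did change with the block. Their number went from 120 to 116 in heart over liver and from 132 to 131 in lung over liver. In lung over heart it went from 99 to 97. The miR-101 to miR-128 ratio passed the exact permutation test in heart over liver without the heart of horse 27 (-2.62, adjusted p = 0.0429; range -2.62 to -1.54), and its replacement by the share of known miRNAs passed in heart over liver (-3.22) and lung over liver (-1.99; adjusted p = 0.0429 each). In lung over heart the ratio ranged from -0.33 to 0.76 and was below 0 without lung 34 or heart 34. miR-128 changed sign with equal totals in heart over liver (-1.08) and lung over heart (0.96), with miR-1 left out of them (-0.17 and 0.041), and with a horse or library left out (-0.32 to 0.53 and -0.83 to 0.11). Numbers of calls stayed within 1.5 times the main count in every alternative. The test on recovered reads was not run. The counting error of miR-101 was at most 1.14% of a value; other effects of depth were not tested.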
